A study of Mus musculus with 2 samples.

Results

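Divergent, or bidirectional, promoters are stretches of DNA from which 2 neighbouring genes are transcribed in opposite directions. Their accessibility was described in spleen DNase-seq by taking every pair of protein-coding genes on opposite strands whose most upstream transcription start sites (TSSs) pointed away from each other and lay 1 to 1000 bp apart in GENCODE M21 on mm10. The rule used gene positions and no measured value. It found 754 pairs with 1487 genes, 6.78% of the 21938 protein-coding genes, and 21 genes belonged to 2 pairs, so such pairs share DNA. They were set against 18699 single promoters, which belong to coding genes in no pair and with no TSS of another coding gene within 1500 bp. The other 1752 coding genes were in neither class.

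The 2 libraries came from male B6CASTF1/J spleen at 10 days of age, from the first-generation cross of C57BL/6 and CAST/EiJ mice. They are biological replicates 1 and 2 of 1 group under a shared donor identifier. Whether they come from separate animals is not stated outright. In DNase-seq the enzyme DNase I nicks DNA that nucleosomes leave free, the cut ends are sequenced, and a peak marks a stretch with many cuts. A footprint is a short stretch inside such DNA with few cuts, where a bound protein may shield it. A single group allows no test between conditions, so the libraries are given side by side.

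Mammalian genomes hold many more divergent gene pairs than random gene order would give, and housekeeping, DNA repair and mitochondrial genes are common among them. Most lie in CpG islands, lack a TATA box and are bound by general promoter factors such as ETS proteins, NRF1, NF-Y, YY1 and SP proteins. The 2 start sites have their own core promoters, which share a nucleosome-depleted stretch when they lie close together.

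The DNA between the start sites is shown for 8 pairs that carry the findings below, from the RefSeq copy of GRCm38 (mm10), plus strand, 5′ to 3′, with the minus-strand gene on the left. Capitals mark bases that lay in a footprint in both libraries. Pdhx/Apip is chr2:103073514-103073674, Med22/Rpl7a is chr2:26910678-26910763 and Dcaf6/Mpc2 is chr1:165460476-165460636, 3 of the 5 pairs with the highest signal ranks. Mrpl49/Fau is chr19:6057786-6057843 and Prpf38a/Orc1 is chr4:108579337-108579422, strong pairs of the mitochondrial ribosome and of DNA replication. Hist1h2ae/Hist1h2bg is chr13:23571221-23571395, a histone pair with a higher strongest signal in replicate 2. Hist1h2ap/Hist1h2br is chr13:21833508-21833742 and Best1/Rab3il1 is chr19:10001634-10001668, both without a peak.
Pdhx/Apip: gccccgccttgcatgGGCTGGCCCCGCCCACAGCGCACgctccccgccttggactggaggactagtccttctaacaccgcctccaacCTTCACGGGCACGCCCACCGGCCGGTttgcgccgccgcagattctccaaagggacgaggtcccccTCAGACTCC
Med22/Rpl7a: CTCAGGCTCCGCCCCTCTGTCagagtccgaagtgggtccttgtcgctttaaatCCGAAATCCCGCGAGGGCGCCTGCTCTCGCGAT
Dcaf6/Mpc2: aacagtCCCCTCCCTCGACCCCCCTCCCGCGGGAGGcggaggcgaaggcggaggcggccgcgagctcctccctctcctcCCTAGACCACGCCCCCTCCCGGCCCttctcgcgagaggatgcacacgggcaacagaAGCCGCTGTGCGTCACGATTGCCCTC
Mrpl49/Fau: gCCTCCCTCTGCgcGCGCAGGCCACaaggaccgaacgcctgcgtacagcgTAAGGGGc
Prpf38a/Orc1: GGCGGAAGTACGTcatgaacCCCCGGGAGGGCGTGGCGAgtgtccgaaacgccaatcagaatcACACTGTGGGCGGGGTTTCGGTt
Hist1h2ae/Hist1h2bg: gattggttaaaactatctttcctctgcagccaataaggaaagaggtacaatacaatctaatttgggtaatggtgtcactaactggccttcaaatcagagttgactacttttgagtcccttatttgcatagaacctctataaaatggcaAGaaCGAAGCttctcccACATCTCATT
Hist1h2ap/Hist1h2br: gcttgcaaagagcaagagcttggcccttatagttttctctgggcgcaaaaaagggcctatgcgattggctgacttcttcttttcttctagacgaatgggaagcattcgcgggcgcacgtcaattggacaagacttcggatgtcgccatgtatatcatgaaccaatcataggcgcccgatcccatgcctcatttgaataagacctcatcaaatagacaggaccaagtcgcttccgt
Best1/Rab3il1: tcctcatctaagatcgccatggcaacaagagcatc

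The 5 strong pairs had 61.6% to 71.4% G and C between their start sites, Hist1h2ap/Hist1h2br had 48.5% and Hist1h2ae/Hist1h2bg had 38.3%. Over the 730 pairs with at least 20 bases between the start sites the median was 63.1% (quartiles 55.9% and 69.7%), against 56.2% (46.9% and 65.4%) in the 130 bp upstream of single promoters. Both libraries put a footprint on the string CCGCCC, the reverse complement of the SP and KLF string GGGCGG, in Pdhx/Apip and in Med22/Rpl7a, and on GGGCGG itself in Prpf38a/Orc1. The string GCCAAT, which NF-Y is known to bind, stood outside the capitals in Prpf38a/Orc1 and in Hist1h2ae/Hist1h2bg. The same histone stretch held TATAAA, the TATA box string, at bases 137 to 142 of the stretch, also outside the capitals. Peaks covered 15 of the 175 bases of this stretch in replicate 1 and all 175 in replicate 2. Lower case in it thus need not mark open DNA without a footprint.

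The start sites of the pairs were close together. The median distance was 130 bp, with quartiles at 67.0 and 240 bp, and 312 pairs lay within 100 bp and 618 (82.0%) within 300 bp. The shortest distance was 1 bp, between Bag4, which encodes a chaperone regulator, and Lsm1, an mRNA decay factor. The longest was 987 bp, between Btf3l4 and Txndc12. Chromosome 11 held 68 pairs, the X chromosome 20 and the Y chromosome 0.

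Nearly every divergent pair was open in both libraries. For each pair the window ran from 500 bp outside the left start site to 500 bp outside the right one, and a peak counted with at least 1 bp inside it. A peak was found at 726 pairs (96.3%, exact binomial 95% interval 94.7% to 97.5%) in replicate 1, against 57.8% (57.1% to 58.5%) of single promoters. In replicate 2 the pairs had 714 (94.7%, 92.8% to 96.2%), against 50.9% (50.2% to 51.6%) of single promoters. Both libraries had a peak at 713 pairs (94.6%, 92.7% to 96.1%), against 50.1% of single promoters and 55.2% of all coding promoters taken one by one. The intervals cover counting error only, and the pair windows were longer, at a mean of 1194 bp, than the 1001 bp of the single windows. Of the remaining pairs, 13 had a peak in replicate 1 alone, 1 in replicate 2 alone and 27 in neither.

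Much of this gap moved with CpG content, and part remained when single promoters were weighted by CpG quintile. The pairs had a median of 6.74 CpG per 100 bp in the 1001 bp around their start sites, and single promoters 3.40. The upper 2 quintiles of CpG content held 616 pairs (81.7%) and 38.5% of single promoters. In the middle quintile 96.4% of the pairs and 75.1% of single promoters had a peak in replicate 1, and 88.3% of the pairs and 62.7% of single promoters in replicate 2. In the highest quintile the pairs reached 99.3% and 99% in replicates 1 and 2, and single promoters 96.7% and 88.1%. In the lowest quintile 0 of 6 pairs had a peak in replicate 1 and 1 of 6 in replicate 2, against 4.01% and 3.90% of single promoters, and with 6 pairs no difference was detectable. When single promoters were weighted to the CpG quintiles of the pairs, the mean difference over the libraries was 10.2 percentage points, against 41.1 without weights. CpG content can still differ within a quintile. The value of a pair is also a mean over the windows of both start sites, and that of a single promoter is from 1 window.

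**Figure D1:**
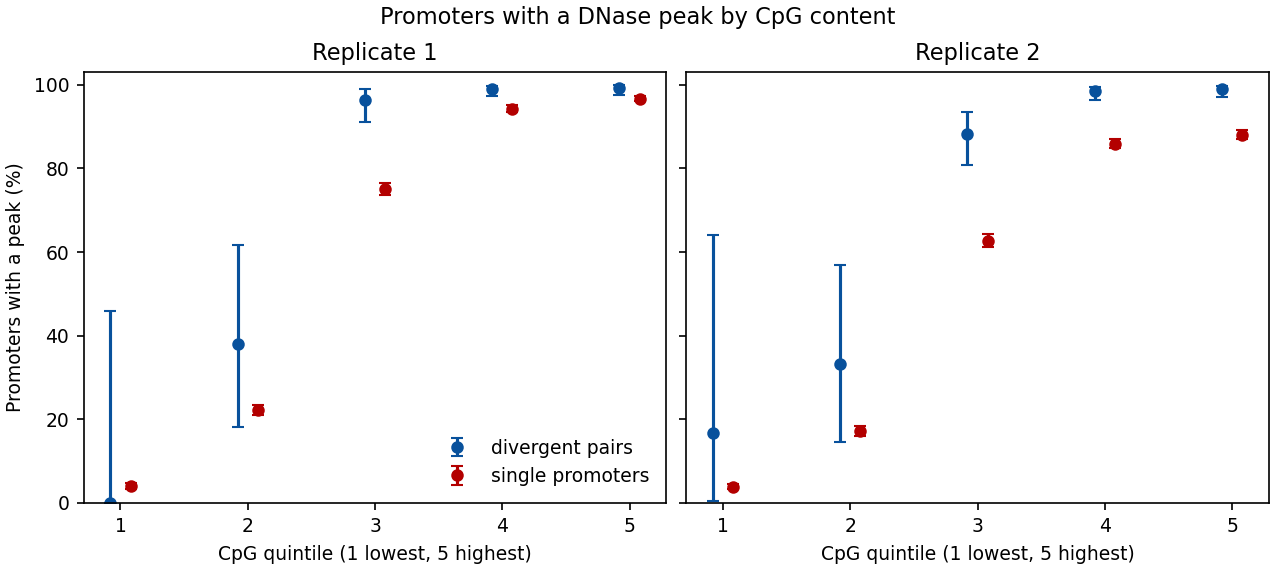
Share of promoters with a DNase peak (vertical axis, percent) by CpG quintile (horizontal axis) in each library, for divergent pairs (blue) and single promoters (red), with exact binomial 95% intervals as bars. In the middle quintile the pairs stand at 96.4% and 88.3%, and single promoters at 75.1% and 62.7%.

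Pairs carried stronger peaks than single promoters, of about the same width. The signal is the authors' depth-scaled cut density of a peak, and it compares within a library. The strongest peak of a pair had a median signal of 15.7 in replicate 1 (quartiles 9.47 and 21.8), and that of a single promoter with a peak 5.03 (0.966 and 13.8). In replicate 2 the medians were 6.15 (4.04 and 8.65) for the pairs and 2.83 (0.846 and 5.98) for single promoters. The ratio of the medians was 3.12 in replicate 1 and 2.17 in replicate 2. With single promoters weighted by CpG quintile the mean ratio was 1.86. The upper quartile of the single promoters lay below the median of the pairs in both libraries. The median width of the strongest peak was 200 bp in replicate 1 in both classes, and 220 bp at pairs against 200 bp at single promoters in replicate 2.

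The strongest promoters of the tissue included many pairs. Pairs made up 3.88% of the pairs and single promoters together, and 14.1% (12.0% to 16.4%) of the 1000 strongest in replicate 1 and 13.2% (11.2% to 15.5%) in replicate 2. Among the 100 strongest they numbered 12 and 10. The 3.88% also counts promoters without a peak, which cannot rank there. With a peak there were 726 pairs and 10811 single promoters in replicate 1, and 714 and 9522 in replicate 2. Part of the excess thus repeats the higher share of open pairs, and no share weighted by CpG quintile was computed. The 5 pairs with the highest mean rank over both libraries are given here. Pdhx, a subunit of the pyruvate dehydrogenase complex, and Apip, an enzyme of methionine salvage, had a strongest signal of 55.0 in replicate 1 and 16.8 in replicate 2. Med22, a subunit of the Mediator complex, and Rpl7a, a protein of the large ribosomal subunit, had 46.8 and 17.5. Dcaf6, a substrate receptor of a ubiquitin ligase, and Mpc2, a subunit of the mitochondrial pyruvate carrier, had 41.1 and 19.3. Fbh1, a DNA helicase, and Ankrd16 had 42.4 and 18.9, and Fam53a and the predicted gene Gm9903 had 48.2 and 18.5.

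Pairs also held more peaks than single promoters, taken over all CpG classes. The mean number of peaks per promoter with a peak was 1.79 in replicate 1 and 1.82 in replicate 2 at pairs, against 1.59 and 1.57 at single promoters. At least 2 peaks stood at 59.2% and 61.6% of the pairs with a peak, against 48.7% and 47.3% of such single promoters. In the highest CpG quintile this did not hold in replicate 1, where 62.0% of open pairs and 67.0% of open single promoters had at least 2 peaks, while in replicate 2 it was 69.1% and 65.5%. Over all promoters, open or not, the ratio of means was 1.88 in replicate 1 and 2.15 in replicate 2. Weighting single promoters by CpG quintile gave a mean ratio of 1.23. Most peaks were found at Fiz1/Gm44973 with 4 and 5 in replicates 1 and 2 and at Mrpl40/Hira with 5 and 4. Aamdc/Rsf1 followed with 4 and 4, tied on the mean with Cep170/Sdccag8, Rbmxl1/Slc10a7, Tbc1d10b/Mylpf and Pecam1/Milr1. Hira encodes a histone chaperone and Rsf1 a subunit of a chromatin remodelling complex.

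The layout of the peaks went with the distance between the start sites. In pairs 1 to 50 bp apart a single peak reached across both start sites in 96.1% of the pairs with a peak in each library. At 101 to 200 bp this share was 44.9% in replicate 1 and 62.7% in replicate 2, at 201 to 300 bp 16.8% and 24.5%, at 301 to 500 bp 3.08% and 7.81%, and at 501 to 1000 bp 0% and 0%. The peaks themselves stayed narrow across these classes, with median widths of 180 to 200 bp in replicate 1 and 200 to 240 bp in replicate 2. The median signal of the 6 distance classes, from the closest to the widest, was 14.6, 14.5, 16.0, 16.5, 17.7 and 14.4 in replicate 1. In replicate 2 it was 5.52, 5.82, 6.58, 6.84, 6.96 and 5.87. In both libraries it was thus highest at 301 to 500 bp and lower again in the widest class. The mean number of peaks at open pairs was 1.65 and 1.61 in the closest class and 2.39 and 2.45 in the widest, whose windows were also longer.

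**Figure D2:**
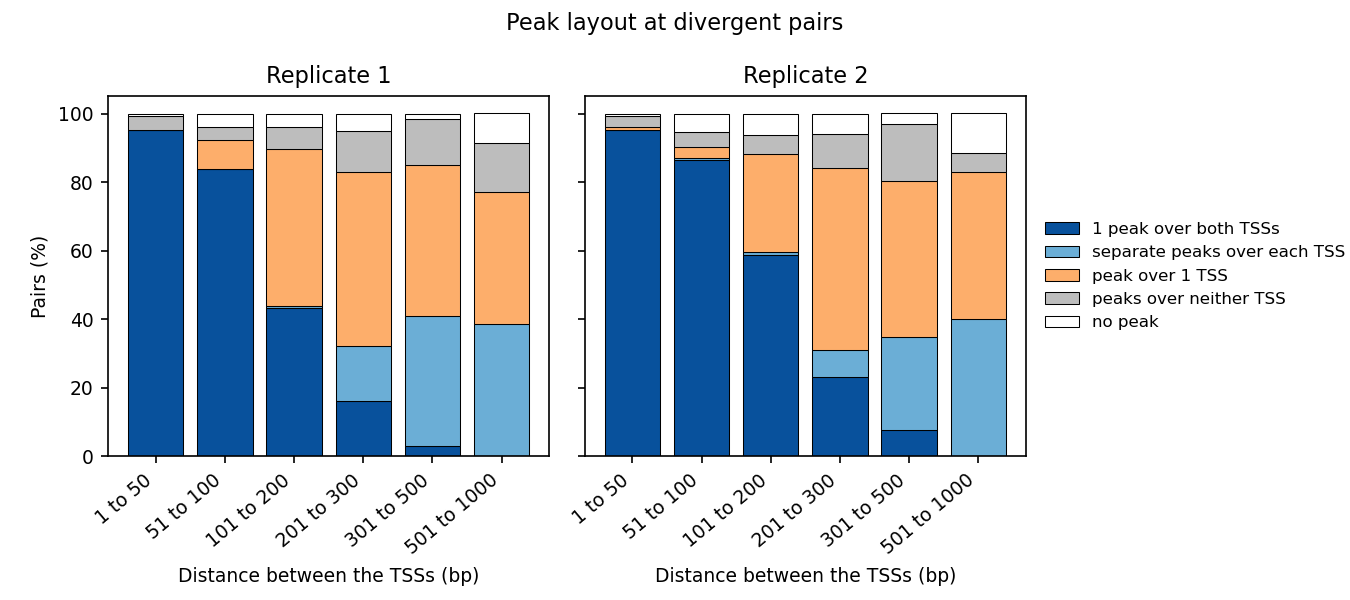
Share of the 754 pairs (vertical axis, percent) with each peak layout, by distance between the start sites in bp (horizontal axis), in each library. The share with 1 peak over both start sites shrinks with distance, and separate peaks over each start site appear mainly beyond 200 bp.

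Over all pairs, 383 (50.8%) had 1 peak over both start sites in replicate 1 and 430 (57.0%) in replicate 2. Separate peaks over each start site were found at 69 and 57 pairs, a peak over 1 of the start sites at 218 and 179, and peaks that touched neither at 56 and 48. Of the 713 pairs open in both libraries, 567 (79.5%) had the same layout in both and 453 (63.5%) the same number of peaks. The strongest peaks of the libraries overlapped at 700 (98.2%). The place of the strongest peak was thus shared more often than the number of peaks called beside it.

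The strongest peak usually stood in the DNA between the start sites, except in the closest pairs. Its centre lay there at 67.4% of the pairs with a peak in replicate 1 and at 69.3% in replicate 2. The median distance of the centre from the midpoint was 38.0 and 36.0 bp. In pairs 1 to 50 bp apart the centre lay between the start sites in 45.7% and 40.9%. At 201 to 300 bp this was 78.9% and 85.1%. Seen from the plus-strand gene, the centre lay upstream of the TSS in 83.6% and 85.2% of the pairs, and seen from the minus-strand gene in 83.7% and 84.2%. At single promoters it lay upstream in 58.9% and 63.7%. Upstream at a pair takes in the DNA between the start sites and the partner gene's side of the window. The shares of the pairs thus restate the position counts, and their excess over single promoters cannot be told apart from this geometry. The centre fell on the minus-strand gene's side at 118 pairs in replicate 1 and 113 in replicate 2, and on the plus-strand gene's side at 119 and 106.

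Peak cover was highest just upstream of the start sites and low inside the genes. In pairs 1 to 100 bp apart, 92.6% in replicate 1 and 92.3% in replicate 2 were covered by a peak 30 bp upstream of the plus-strand TSS, against at most 41.8% and 38.4% at any position near single promoters. At 300 bp into the gene the cover of these pairs was 13.5% and 15.7%, and that of single promoters 16.8% and 14.0%. At that distance the close pairs were covered less often than single promoters in replicate 1 and slightly more often in replicate 2. In pairs 301 to 1000 bp apart the highest cover was 59.6% and 61.8%. At 300 bp upstream of the TSS 41.2% and 38.2% were covered, against 6.82% and 6.25% of single promoters. In this distance class that point always lies between the start sites, and near the partner's TSS in the closest of these pairs. The excess there cannot be told apart from this geometry.

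**Figure D3:**
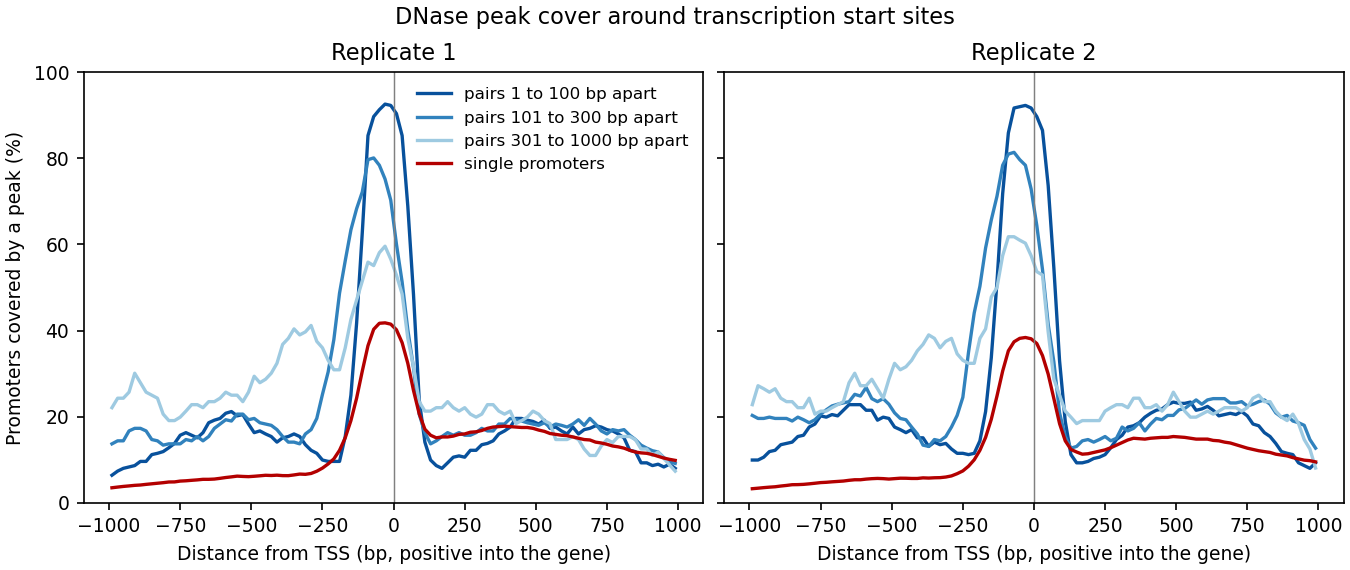
Share of promoters covered by a peak (vertical axis, percent) by distance from the TSS in bp (horizontal axis, positive into the gene), in each library, for pairs in 3 distance classes (blue shades, measured from the plus-strand gene) and single promoters (red). Close pairs reach 92.6% and 92.3%, and single promoters 41.8% and 38.4%.

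The deposited false discovery rates of the cut rate gave the same picture base by base. In 666 pairs (88.3%) in replicate 1 and 654 (86.7%) in replicate 2, every base between the start sites was listed below 0.001. The 130 bp upstream of single promoters met this in 40.6% and 36.4%. The stretch of a pair varied in length with the distance between its start sites, and a shorter stretch meets this rule more easily. Both classes include promoters without a peak. No base was below 0.001 in 6.37% and 7.56% of the pairs, against 53.1% and 57.6% of single promoters.

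Footprints lay densest between the start sites. Per kb of bases in peaks there were 20.9 footprints in replicate 1 and 21.4 in replicate 2 between the start sites, 19.7 and 20 in the first 100 bp of the genes, and 12.4 and 9.59 in the next 400 bp. Single promoters had 19.7 and 19.7 in the 130 bp upstream, 18.1 and 17.5 in the first 100 bp and 12.2 and 9.88 in the next 400 bp, so both classes showed the same order along the promoter. Over whole windows the pairs had 17.4 and 16.5 per kb of called bases and single promoters 15.8 and 14.9, a mean ratio of 1.10. The ratio was 1.08 with weights by CpG quintile, and 1.04 with the shorter peak list or with windows 1000 bp outside the start sites. For any footprint per kb of window it was 2.23. An open pair had 6.13 and 6.26 footprints on average, and an open single promoter 4.93 and 4.71. Pairs with a peak and no footprint in it made up 0.689% and 0.420%, against 3.04% and 4.42% of single promoters.

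The 5 pairs with most footprints had 13 to 19 in their windows. Zbtb25/Zbtb1, which encode zinc finger factors of the BTB family, had 17 in replicate 1 and 19 in replicate 2. Cmc2/Cenpn had 15 and 18, and Cenpn encodes a centromere protein. Cdca2/Kctd9 had 13 and 18 over 3 peaks in each library, the strongest 400 and 480 bp wide. Cbx5, which encodes heterochromatin protein HP1 alpha, and Hnrnpa1, an RNA-binding protein, shared 15 and 14, and Fiz1/Gm44973 had 16 and 13. The signal of Zbtb25/Zbtb1 was low at 4.93 and 2.09, while that of Cdca2/Kctd9 was 20.9 and 8.24, so many footprints occurred at weak and at strong pairs.

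Strings bound by general promoter factors were common in pair promoters, and those of ETS, YY1 and NF-Y were more common there than in CpG-rich open single promoters. In all, 14 short strings were searched on both strands in the 300 bases from 250 before to 50 after the most upstream TSS. The plus-strand and the minus-strand gene of each pair were searched separately. All 754 pairs were used without a filter, of which 616 lay in the upper 2 CpG quintiles and 713 had a peak in both libraries. The ETS string CCGGAAG was found at 26.9% (23.8% to 30.2%) of plus-strand and 27.9% (24.7% to 31.2%) of minus-strand genes of pairs. It was found at 17.0% (16.1% to 18.0%) of the 6256 single promoters in the upper 2 CpG quintiles with a peak in both libraries, and at 8.96% of all single promoters. The YY1 string AAGATGGC was found at 8.36% and 7.96% of plus-strand and minus-strand genes of pairs, against 4.03% of those CpG-rich single promoters and 2.40% of all. The NF-Y string GCCAAT had 25.6% and 26.3% in pairs, against 20.5% and 16.4%. For these 3 strings the 95% intervals of both strands lay above that of the CpG-rich single promoters. The 2 windows of a pair overlap where its start sites lie close together, so the strands are not 2 separate counts. A pair's window also holds the partner's start site where the distance is at most 250 bp, unlike a single promoter's window. Whether this raised the shares was not tested.

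The other strings stood on either side of the CpG-rich single promoters, a set filtered by CpG content and peaks, unlike the pairs. A lower share in pairs is thus not a comparison at like CpG content. The SP and KLF string GGGCGG was found at 68.7% and 69.5% of plus-strand and minus-strand genes, against 75.3% of CpG-rich and 40.3% of all single promoters. The NRF1 string GCGCATGC had 6.37% and 7.03%, against 6.27% and 3.41%, and the CREB string TGACGTCA had 4.24% and 4.64%, against 3.96% and 2.24%. The TATA box string TATAAA had 4.64% and 3.45%, against 5.69% and 13.7%. The GATA string AGATAA, known from red cell genes, had 4.11% and 4.64%, against 4.35% and 10.8%, and the RUNX string TGTGGTT had 1.86% and 2.65%, against 2.99% and 5.37%. The ZNF143 string ACTACAA had 5.70% (4.16% to 7.61%) and 4.77% (3.37% to 6.55%), against 3.40% (2.97% to 3.88%) and 3.55%, so the interval of the plus-strand genes lay above that of the CpG-rich single promoters and that of the minus-strand genes overlapped it. The E2F string TTTCCCGC had 3.18% and 3.71%, against 2.43% and 1.16%, and the PU.1 string GAGGAAGT had 3.05% and 2.65%, against 2.37% and 3.36%, with intervals that overlap those of the CpG-rich single promoters. The E-box CACGTG had 11% and 11.7%, against 11.5% and 7.42%, and the CTCF string AGGNGGC had 37.0% and 38.1%, against 44.7% and 31.0%. Some strings can overlap, such as GGGCGG with AGGNGGC, and a match describes letters only, not a bound site.

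**Figure D4:**
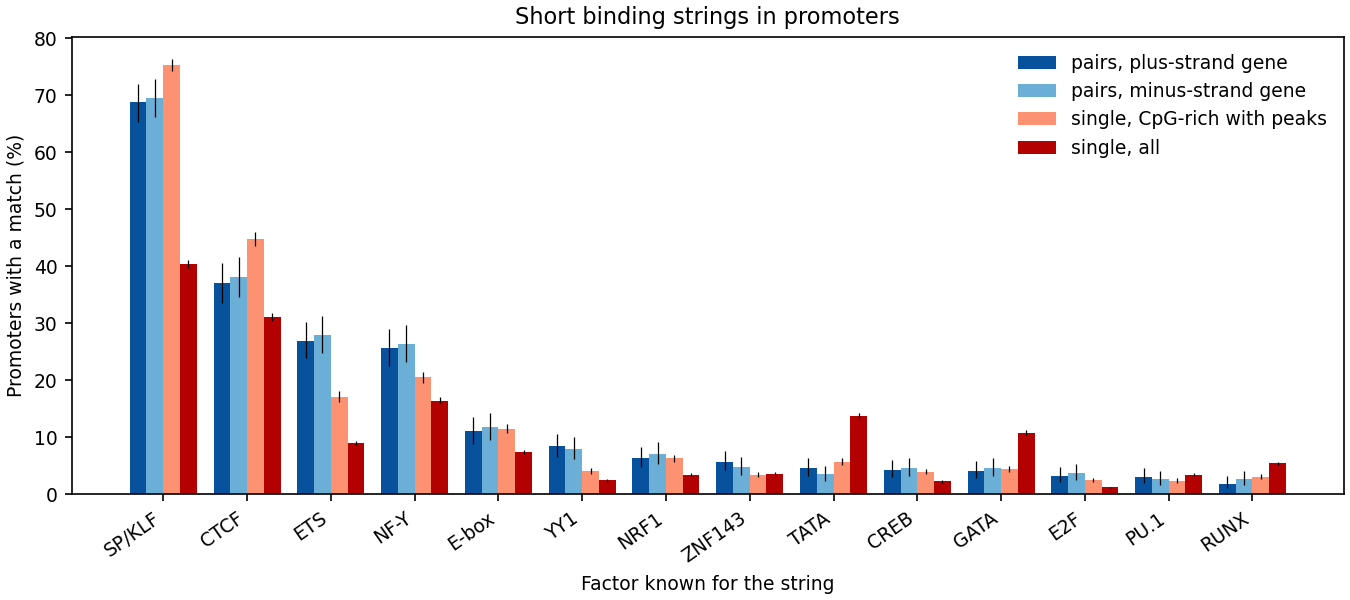
Share of promoters with a match (vertical axis, percent) for 14 strings named by their factor (horizontal axis), for plus-strand and minus-strand genes of pairs (blue shades), single promoters in the upper 2 CpG quintiles with a peak in both libraries (light red) and all single promoters (dark red), with exact binomial 95% intervals. The ETS bars of the pairs stand at 26.9% and 27.9%, above 17.0% and 8.96%.

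Where a string lay in a peak, the share under a footprint differed widely between strings. Of the NRF1 strings of plus-strand genes of pairs, 67 of 75 (89.3%) in replicate 1 and 68 of 76 (89.5%) in replicate 2 had their middle base in a footprint, against 87.5% and 87.5% at single promoters. The CREB string had 90.9% and 93.8%, against 87.0% and 87.3%. The ETS string had 51.2% and 55.6%, against 51% and 44.4%, and the NF-Y string 38.0% and 32.9%, against 32.2% and 29.0%. The 2 strings with the highest shares in pairs, NRF1 and CREB, were thus also the highest at single promoters. The NRF1 string and its reverse complement can overlap in 1 site and were then counted as separate matches. The NRF1 counts are therefore of matches, found at 48 plus-strand genes of pairs, and not of distinct sites.

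Genes of DNA repair and replication sat in pairs more often than coding genes at large, a difference that was not tested. The list held 79 genes, of which 21 (26.6%) sat in 20 pairs, while 6.78% of all coding genes did, and all 20 had a peak in both libraries, beside 94.6% of all pairs, with median signals of 18.6 and 8.65 in replicates 1 and 2. At 51 single promoters of the same list, 48 had a peak in both libraries, with medians of 13.3 and 5.34. The start sites of Atm, a kinase that responds to DNA breaks, and Npat, an activator of histone gene transcription, lie at 53536740 and 53537047 of chromosome 9. This pair had 28.7 and 9.83. Mcm4, a subunit of the replicative helicase, and Prkdc, the catalytic subunit of DNA-dependent protein kinase, start at 15637400 and 15637866 of chromosome 16. Mcm4/Prkdc had 23.2 and 8.74, with separate peaks over each TSS in both libraries. Brca1, a homologous recombination factor, and Nbr1, an autophagy receptor, start at 101551955 and 101552149 of chromosome 11 and had 16.0 and 5.98. Their strongest peak began at 101552541 in both libraries, inside the Nbr1 side of the window and not between the start sites.

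Abhd12/Gins1 and Prpf38a/Orc1 were among the strongest of the other replication and repair pairs. Gins1 is part of the replicative helicase and Orc1 is the largest subunit of the origin recognition complex. Their signals in replicates 1 and 2 were 33.7 and 11 for Abhd12/Gins1 and 26.4 and 11.8 for Prpf38a/Orc1. The weakest was Pinlyp/Xrcc1, with 0.930 and 0.528. Of the textbook pairs looked up, the 3 of Atm, Prkdc and Brca1 met the rule. In 6 others, Hspd1 with Hspe1, Col4a1 with Col4a2, Psmb9 with Tap1, Surf1 with Surf2, Ranbp1 with Trmt2a and Ppat with Paics, the most upstream start sites overlap by 21 to 271 bp in the annotation.

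Genes of the mitochondria and the proteasome were in open pairs at about the share of all pairs, 94.6%. Of 107 respiratory chain genes, which the symbol rule takes with their assembly factors, 24 (22.4%) sat in 24 pairs. All 24 pairs were open in both libraries, with medians of 17.3 and 7.72. Wdr4/Ndufv3 had 31.8 and 10.7, the highest of these in replicate 1, where Ndufv3 is a subunit of complex I. Of 78 genes of the mitochondrial ribosome, 18 (23.1%) sat in 18 pairs, all open, with medians of 15.9 and 6.29, and Mrpl49/Fau had 35.5 and 11.5, the highest of these in replicate 1. Of 50 proteasome genes 8 sat in 8 open pairs, with medians of 13.7 and 4.38, and Ftsj3/Psmc5 was the strongest with 33.0 and 11.8. Mrpl32/Psma2 joins a mitochondrial ribosome gene to a proteasome gene and had 17.3 and 7.46. Single promoters of these 3 lists had medians of 13.8 and 5.52, 9.0 and 3.59, and 15.3 and 6.11, so the proteasome pairs were not above their single counterparts.

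The other families differed in how often they were paired, beside 6.78% of all coding genes. Of 90 cytosolic ribosome genes 9 (10%) sat in pairs, and 8 of the 9 pairs were open, Rnf151/Rps2 being the exception. Zinc finger genes with Zfp symbols had 20 of 394 (5.08%) in 18 pairs, 17 of them open. Olfactory and vomeronasal receptors had 1 of 1466, in Nt5c3/Vmn1r4, which was open with 19 and 7.06, and keratins had 0 of 53. Of the 6 type IV collagen genes, which encode basement membrane chains, 2 (33.3%), Col4a4 and Col4a3, formed a pair within the rule. It had a weak peak of 0.353 in replicate 1 and none in replicate 2.

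Markers of the tissue were looked up, and beside the 55.2% of all coding promoters with a peak in both libraries, all 18 red cell, all 7 B cell and all 9 antigen presentation genes had one. So did 4 of 7 T cell genes, without Cd3e, Cd4 and Bcl11b, 4 of 6 macrophage genes, without Adgre1 and Spic, and 4 of 6 neutrophil genes, without Elane and Ngp. Of the lists of other tissues 0 of 4 liver genes, 1 of 3 neuron, 1 of 3 muscle and 1 of 3 pancreas genes had one. Of all these lists, 1 red cell gene and 1 muscle gene sat in a pair. Urod, an enzyme of heme synthesis, and Hectd3, a ubiquitin ligase, start 904 bp apart and had 22.8 and 9.19. Klc3, a kinesin light chain, and Ckm, the creatine kinase of muscle, start 672 bp apart and had 3.81 and 1.04.

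Replication-dependent histone genes, which are transcribed in S phase, formed the family with the largest paired share of those listed. Their pairs stood apart in signal. Of 67 genes 27 (40.3%) sat in 14 pairs, and in 13 of them both genes were histones. Of these 13, 11 were open in both libraries. Their signals ran from 0.304 to 9.0 (median 4.89) in replicate 1 and from 0.331 to 8.14 (median 5.89) in replicate 2. Both lowest values were at Hist1h2ba/Hist1h2aa, listed by symbol, where no peak touched a start site. The next lowest were 3.42 at Hist1h2ae/Hist1h2bg in replicate 1 and 4.72 at Hist1h2ah/Hist1h2bk in replicate 2. The 702 other open pairs had medians of 16.0 and 6.18. In replicate 1 all 11 histone pairs lay below the median of the other pairs, and in replicate 2 the medians were close. The 20 single promoters of the family were all open in both libraries. Their medians were 10.3 and 7.30, so the histone pairs were weaker than their single counterparts.

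Most pairs with a stronger peak in replicate 2 were histone pairs. The log2 ratio of replicate 1 over replicate 2 had a median of 1.36 (SD 0.37) over the 713 open pairs, and 13 of them were below 0. Among the 11 histone pairs the median was -0.27, from -0.59 to 0.52, and 10 were below 0, against 3 of the 702 other open pairs. Hist1h2bh/Hist1h3f had 3.99 in replicate 1 and 6.01 in replicate 2. Hist1h2ae/Hist1h2bg had 3.42 and 4.87, and Hist2h2ac/Hist2h2be had 6.42 and 8.14. The ratio sets the strongest peak of each library against the other, wherever in the window it lies. At Hist1h2ae/Hist1h2bg these were different peaks, at 23570961 to 23571160 in replicate 1 and 23571261 to 23571500 in replicate 2. Signal scales may differ between libraries, so the ratios are read beside the median of 1.36. Hist1h2bf/Hist1h2ad was the exception, with 9.0 and 6.28. The other 3 pairs were H2-T22/Gm6034 with 2.24 and 2.73, Ccnb1ip1/Parp2 with 8.99 and 9.83, and Cdr2/Mfsd13b with 11 in both after rounding. The strongest shift the other way was at Klhl28/Togaram1, with 36.3 and 8.85.

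The same family at single promoters was shifted less. Of 20 single histone promoters open in both libraries 4 were below 0, with a median log2 ratio of 0.49, from -1.47 to 1.12, against 1.27 over all single promoters. The median ratios of the pairs of other families lay between 1.08 for the cytosolic ribosome and 1.43 for the receptor pair. Histone pairs also hold near-identical sequence. Of the 11 open histone pairs, 10 had at least 1 stretch of 200 bp or more that matches DNA elsewhere on the chromosomes at 95% identity or more, covering a median of 70.5% of the window over the 11, against 15 of the 702 other open pairs (2.14%). The part of such copies, and of the share of dividing cells, in the ratio was not tested, and the values of individual histone pairs are uncertain where reads could be shared between copies.

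**Figure D5:**
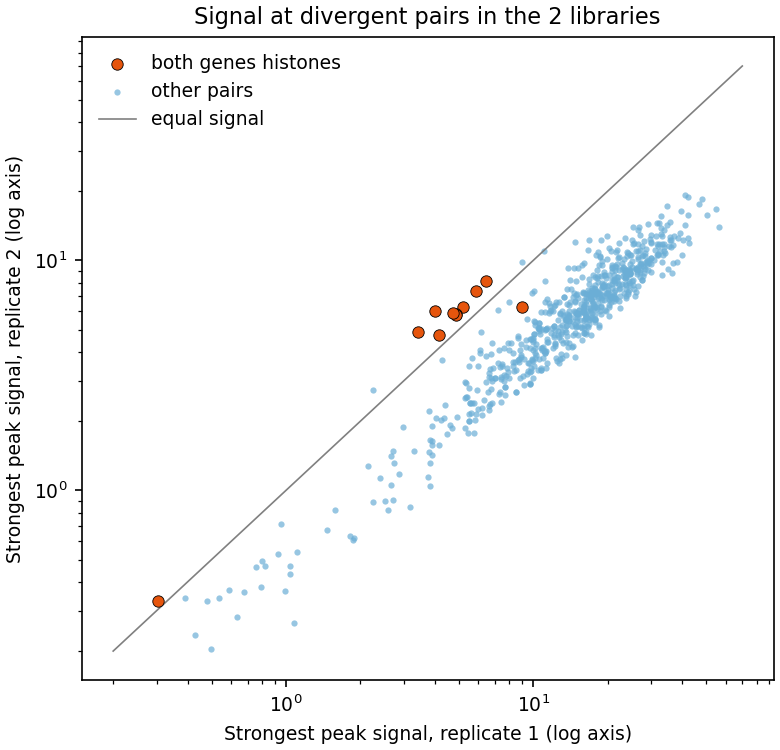
Strongest peak signal of each open pair in replicate 1 (horizontal log axis, depth-scaled density) and replicate 2 (vertical log axis), for pairs of 2 histone genes (orange) and other pairs (blue), with the line of equal signal. Of the 11 histone pairs 10 stand above the line, and of the 702 other pairs 3 do.

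The 27 pairs without a peak in either library were poor in CpG. Their median was 1.80 per 100 bp, against 6.79 in the other pairs. In 12 of them a gene had a peak at another of its TSSs in both libraries, so the most upstream TSS was closed while the gene had an open start elsewhere. Rps2, a protein of the small ribosomal subunit, paired with Rnf151, and Trim28, a corepressor of retroelements, paired with Slc27a5, were of this kind, and so were both genes of Best1/Rab3il1. Tssk2, a kinase of the testis, sat in Dgcr2/Tssk2, where Dgcr2 was open at another TSS. Il11/Tmem190 and Sncg/Mmrn2 had no other open TSS.

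In 6 of the 27 the sequence is repeated elsewhere. The windows of Hist1h2ap/Hist1h2br and Hist1h2bq/Hist1h2ao, at 8.19 and 7.94 CpG per 100 bp, matched other genomic DNA at 100% identity over their whole 1237 and 1269 bp. Gm9112/Dmrtc1b and Dmrtc1a/1700011M02Rik on the X chromosome had copies over 89.9% and 90.8% of their windows. The treatment of reads that match several places is not stated in the labels or file headers, so the lack of a peak at these 4 pairs cannot be told apart from a lack of uniquely placed reads.

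Gene pairs just outside the rule had values between those of the pairs and those of single promoters, or near the pairs. Head-to-head pairs with overlapping most upstream start sites (457) had a peak in 95.6% in replicate 1 and 92.6% in replicate 2, with median signals of 12.4 and 5.15. Coding pairs 1001 to 2000 bp apart (108) had a peak in 79.6% and 76.9%, with 9.78 and 4.68, although their windows were longer. Coding genes with a noncoding gene head to head within 1000 bp (772) had a peak in 86.1% and 80.3%, with 10.0 and 4.40. Single promoters were clear of coding neighbours only, so genes of this noncoding class can also be among them. With single promoters clear of any other gene, pairs led by a mean of 44.1 percentage points in the share with a peak. Their mean ratio of median signals was then 2.82. Against 96.3% and 94.7% at the 754 coding pairs, the intervals of the 1001 to 2000 bp class and of the noncoding class lay below.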

How the data were processed

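Spleen DNase-seq of 2 libraries was used, biological replicates 1 and 2 of 1 group. The authors deposited, per library, 2 peak lists with a signal per peak, footprints, and stretches with a false discovery rate (a q-value) of the cut rate, on mm10 per the file headers. The signal was a depth-scaled density as deposited by the authors, and its depth is unknown. The aligner, the peak caller and the footprint caller are not named in the labels or headers used here. The longer list was used, with 130476 peaks in replicate 1 and 95847 in replicate 2. The footprint value, as deposited, was 0.01 throughout and not used.

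Pairs and single promoters came from GENCODE M21. Windows, overlap of 1 bp or more, and exact (Clopper-Pearson) 95% intervals are as given above. Overlapping peaks (1.71% and 1.81%) were kept as separate peaks, with called bases counted once, and a footprint counted where its middle lay in a peak. CpG was counted within 500 bp of the TSS. Copies were found with blastn 2.17.0. Python 3.11.15, numpy 2.4.6, scipy 1.17.1 and pysam 0.24.0 were used. The interval code was tested on simulated data.

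Pairs and lists were chosen with earlier results of these data known. Named pairs were textbook pairs, those with the highest signal rank, most footprints, most peaks and extreme library ratios, the shortest and longest distances, pairs without a peak at the shortest and longest distances, lineage genes, and up to 3 by signal of each family. Families went by symbol start, and S6 kinases, Rps19bp1 and Col4a3bp were dropped as no members. Other pairs named (Cdr2/Mfsd13b, H2-T22/Gm6034, Ccnb1ip1/Parp2, Pinlyp/Xrcc1 and those with copies) were chosen after their values were seen. Alternatives were other windows, peak lists, distances, TSS choices, CpG weights and chromosomes, and each library alone. Some pairs that the rule names are not reported here.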

Additional observations from a re-analysis of the deposited data

How the results depend on the processing

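Of 79 alternative values for 7 main results 16 moved by more than 1 SD of the 2 libraries (for the share with a peak in both, beyond its 95% interval) and 0 reversed. The 12 that leave out a library lie within 1 SD by construction and show nothing on stability. The share of pairs with a peak in both libraries and the width ratio did not move. Weighting single promoters by CpG quintile gave a difference in the share with a peak of 10.2 percentage points (main 41.1), a ratio of peaks per promoter of 1.23 (main 2.02), of median signal of 1.86 (main 2.64) and of footprints per kb of 1.08 (main 1.10). The shorter peak list gave a difference of 45.5, a ratio of peaks of 2.23 and of footprints of 1.04. A fixed window at the plus-strand TSS, added after seeing the data, gave 1.82 for peaks and 1.16 for footprints. The footprint ratio was also 1.11 with windows 250 bp outside the start sites, 1.04 with 1000 bp, 1.12 with single windows extended by the median distance, 1.13 for pairs up to 500 bp apart, 1.10 on autosomes, and 2.23 for any footprint per kb of window. The share with a peak across both start sites was 61.9% for pairs up to 500 bp apart (main 56.5%). The cause of these moves was not tested. Leaving out a replicate gave ranges of 38.5 to 43.8 for the difference, 1.88 to 2.15 for peaks, 2.17 to 3.12 for signal, 1.00 to 1.10 for width and 52.8% to 60.2% for peaks across both start sites. No paired analysis was possible because there is 1 group and no result comes from a test. With 2 libraries the spread is known from 2 values only, and the depth is unknown.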
